A study of Homo sapiens with 6 samples.

Results

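The genes of homologous recombination, the Fanconi anaemia crosslink repair pathway, the checkpoint kinases and R-loop resolution were followed through a DDX18 knockdown in human embryonic stem cells. The set holds 37 genes, chosen by symbol from the rows of a deposited expression table of 17929 genes, and each of the 37 had a row and passed the filter on low values. DDX18 is a nucleolar helicase of the DEAD-box family, and the knockdown used short hairpin RNAs delivered by virus. The libraries came from the established embryonic stem cell lines H9 and HES2, each infected with hairpin shDDX18#1, hairpin shDDX18#3 or the luciferase control hairpin shLuc, and collected on day 4. There was 1 library per line and arm, so 4 knockdown libraries stood against 2 shLuc libraries. Every arm was grown on irradiated, inactivated mouse embryonic fibroblast feeders, and each arm had been through viral infection. The labels give no other allele or agent, and no age applies to these lines.

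Homologous recombination copies lost sequence from a sister chromatid: broken ends are cut back to single strands, BRCA2 and its partners prepare those strands to invade the sister, and the joined molecules are then taken apart by the BLM complex. The Fanconi core complex marks FANCD2 and FANCI with ubiquitin at DNA crosslinks, while ATM, ATR and the CHEK kinases halt the cell cycle. Many of these genes are transcribed most strongly in cells that are replicating DNA, and pluripotent cells, which spend much of their cycle in S phase, are known for high expression of them.

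Values are counts per 1e+06 reads of a scaled library (CPM). Reads recovered over the genes of the deposited expression table summed to 2668179 to 4271741 in the 6 libraries. In the scaled libraries 1 read was worth 0.224 to 0.408 CPM, and a floor of 3 reads lay at 0.671 to 1.23 CPM. This floor covers counting error only. DDX18 itself stood at 19.2 CPM with shDDX18#1, 47.3 CPM with shDDX18#3 and 153 CPM with shLuc in H9, and at 39.3 CPM with shDDX18#1, 60.4 CPM with shDDX18#3 and 161 CPM with shLuc in HES2. The 15 pluripotent stem cell markers examined were detected in every library, with a median log2 fold change of -1.38. They summed to 4563 to 5736 CPM in the knockdown libraries and 7231 to 8345 CPM in the shLuc libraries. PODXL, the only 1 of them with an estimate above 0, made up much of these sums. It had 2130 to 2930 CPM in the knockdown libraries and 1240 to 2140 CPM with shLuc. Fold changes are on log2(CPM + 1), a scale that understates the change of low genes, and were tested with limma, with the line as a block, over 17768 genes at a Benjamini-Hochberg adjusted p under 0.05. Whether the libraries stem from separate cultures is not given in the labels. The p-values therefore cover no more than the spread among these 6 libraries, which may be technical. Where both hairpins are pooled as knockdown, that spread also includes the difference between them. In bulk RNA, fewer cells of a type and less RNA per cell cannot be told apart.

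After DDX18 knockdown, CHEK2, EXO1, BLM, UBE2T, BRCA1, RNASEH2A, RAD54L and XRCC3 fell, and no member rose. In limma the 8 genes that fell are set against 6.26% of all genes tested that were called lower, and the 0 members that rose against 9.6% called higher. An unadjusted p under 0.05 was reached in limma by 21 members, each of them lower in the knockdown libraries. Over all genes, 5882 of the 17768 tested reached it, in either direction. Both edgeR and DESeq2 called 9 members lower and 0 higher. The median fold change of the 37 members was -0.60, against -0.02 over all genes tested, and single members ranged from -1.65 for CHEK2 to 0.60 for RAD51C. The estimate was below 0 for 35 members, and RAD51C and ATM were the exceptions. In the authors' deposited table, 14 members had a false discovery rate under 0.05 and a lower value, where 9.42% of its genes did. The 8 members named above were among the 14, and the others were XRCC2, FANCG, FANCD2, RMI1, RMI2 and CHEK1. The authors' deposited table had 0 members higher at that rate, where 13.5% of its genes were.

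The summed level of the 37 members was 821 CPM with shDDX18#1, 1294 CPM with shDDX18#3 and 1657 CPM with shLuc in H9. In HES2 the sum was 1029 CPM with shDDX18#1, 1296 CPM with shDDX18#3 and 1776 CPM with shLuc. Both lines thus gave the same order, with shDDX18#1 lowest and shLuc highest. In 24 of the 37 members, all 4 knockdown libraries lay below both shLuc libraries, as they did in 20.9% of all genes tested, and in 0 members all 4 lay above, as in 19.8%. Set against the shLuc library of its own line, 34 members were lower in H9 shDDX18#1, 31 in H9 shDDX18#3, 36 in HES2 shDDX18#1 and 32 in HES2 shDDX18#3. The median member differed from its own shLuc by -1.0 in H9 shDDX18#1, -0.36 in H9 shDDX18#3, -0.75 in HES2 shDDX18#1 and -0.45 in HES2 shDDX18#3, where the median over all genes was between -0.03 and 0.

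**Figure D1:**
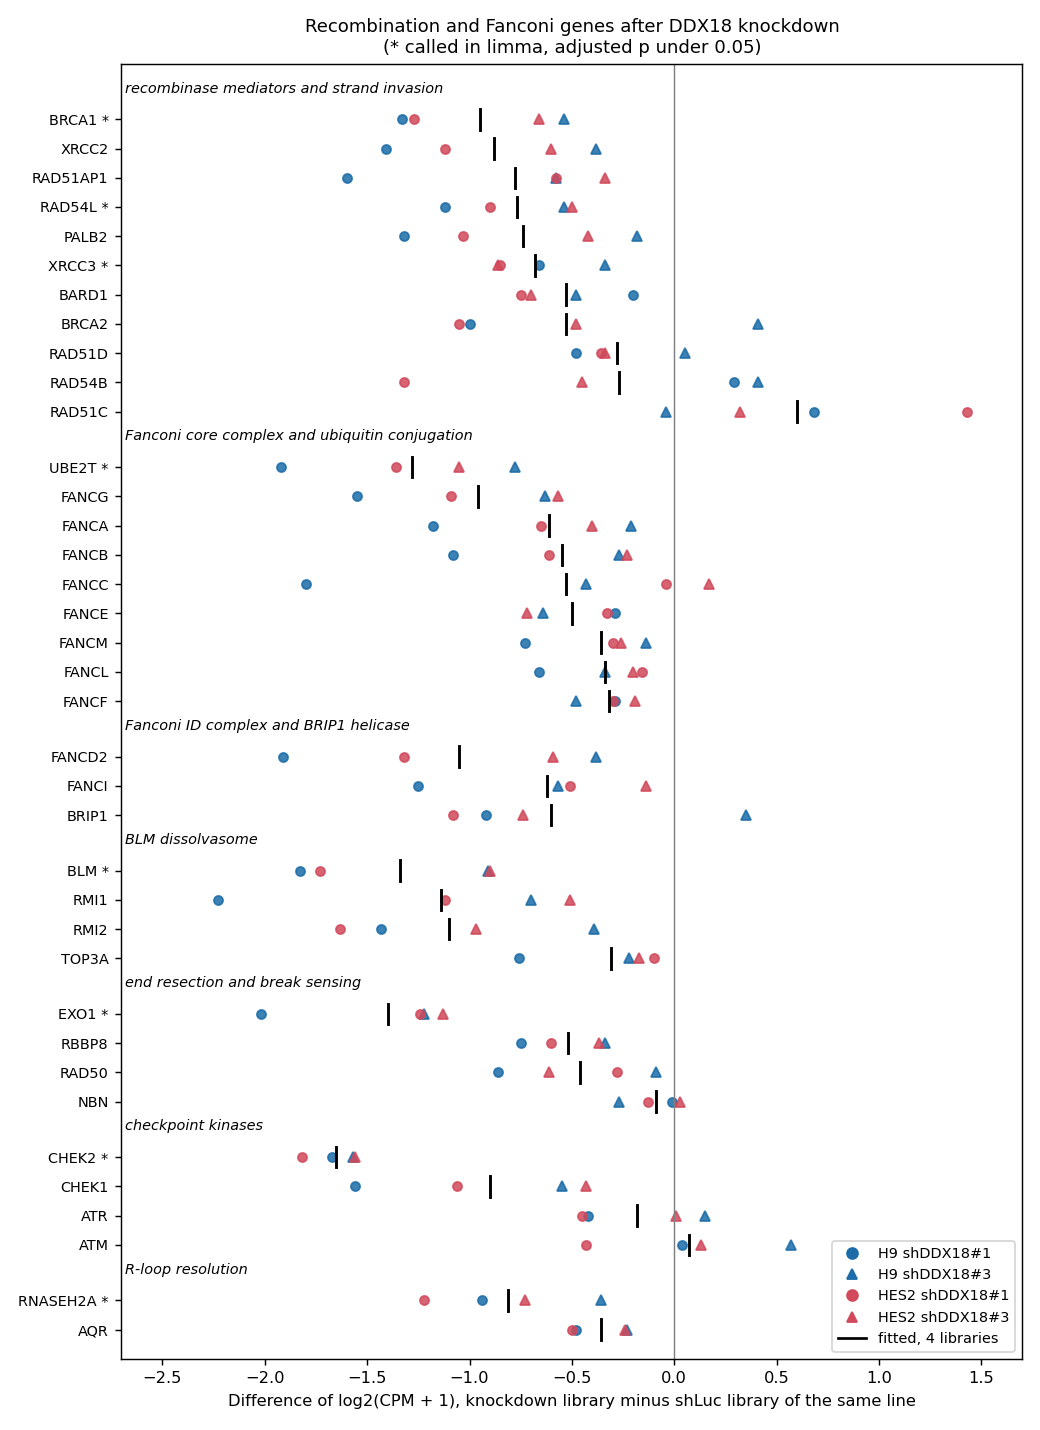
Difference of log2(CPM + 1) between each knockdown library and the shLuc library of its line (x axis) for the 37 members, grouped by role. Circles are shDDX18#1, triangles shDDX18#3, blue H9 and red HES2, the black bar is the value fitted over the 4 knockdown libraries, and an asterisk marks the 8 called members. Most points lie left of 0, from a fitted -1.65 for CHEK2, with RAD51C at 0.60 to the right.

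How many members passed depended on which library was in the fit. Without the H9 shLuc library 1 member, CHEK2, was called lower, and without the HES2 shLuc library 0 were in limma, with 8 at an unadjusted p under 0.05. Without HES2 shDDX18#1 there were 2 (EXO1 and CHEK2), and without HES2 shDDX18#3 there were 3 (BLM, EXO1 and CHEK2). Without H9 shDDX18#1 there were 6, namely 5 of the 8 (XRCC3, UBE2T, BLM, EXO1 and CHEK2) and FANCG. Without the H9 shDDX18#3 library 19 members were called lower: the 8 above and 11 more, BRCA2, PALB2, XRCC2, FANCA, FANCG, FANCD2, BRIP1, RMI1, RMI2, RBBP8 and CHEK1. The median over members stayed between -0.77 and -0.43 in these 6 fits. The share of 6.26% of all genes called lower belongs to the fit of all 6 libraries. The counts above stand without the share of their own fit, so a change in calling over all genes is not separated from them.

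CHEK2, the kinase that relays signals of broken DNA from ATM to the cell cycle machinery, had the lowest fold change of the set. It stood at 14.7 CPM with shDDX18#1, 15.9 CPM with shDDX18#3 and 49.0 CPM with shLuc in H9. In HES2 it stood at 19.3 CPM with shDDX18#1, 23.4 CPM with shDDX18#3 and 70.9 CPM with shLuc. The 4 knockdown libraries kept 27.2% to 33.0% of the level in their own shLuc library, so the groups did not overlap and both hairpins gave nearly one level. The mean was 18.3 ± 3.90 CPM after knockdown (SD, n = 4) and 59.9 ± 15.5 CPM with shLuc (SD, n = 2), a log2 fold change of -1.65 (SE 0.18, limma adjusted p = 0.00274). CHEK2 passed in 17 of 18 alternative fits, and missed at an adjusted p of 0.0562 in limma without the HES2 shLuc library. Pseudogene copies share sequence with it: CHEK2P2 matches 641 bases at 95% identity or more, 32.5% of its longest transcript, so a part of the CHEK2 reads could belong to a copy.

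EXO1, the exonuclease that lengthens the resected end of a break, fell next furthest. Its level was 10.6 CPM with shDDX18#1, 19.1 CPM with shDDX18#3 and 46.0 CPM with shLuc in H9. In HES2 it was 17.7 CPM with shDDX18#1, 19.2 CPM with shDDX18#3 and 43.1 CPM with shLuc. H9 shDDX18#1 was the lowest of the 6, the other 3 knockdown libraries lay close together, and none reached the shLuc values. The log2 fold change was -1.40 (SE 0.26, limma adjusted p = 0.0136); in limma it missed without the H9 shLuc library, at 0.166, and without the HES2 shLuc library, at 0.0965.

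BLM, the helicase mutated in Bloom syndrome, dissolves joined recombination intermediates together with TOP3A, RMI1 and RMI2. It was measured at 15.5 CPM with shDDX18#1, 30.1 CPM with shDDX18#3 and 57.6 CPM with shLuc in H9. For HES2 the values were 20.9 CPM with shDDX18#1, 37.9 CPM with shDDX18#3 and 71.5 CPM with shLuc. In both lines shDDX18#1 was lowest and shDDX18#3 lay between it and shLuc. The log2 fold change was -1.34 (SE 0.31, limma adjusted p = 0.0260), and BLM passed in 13 of 18 alternative fits; in limma without a library it missed for H9 shLuc (0.203), HES2 shLuc (0.172) and HES2 shDDX18#1 (0.0653).

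UBE2T, the ubiquitin-conjugating enzyme that works with FANCL to mark FANCD2 and FANCI, had 8.58 CPM with shDDX18#1, 20.1 CPM with shDDX18#3 and 35.2 CPM with shLuc in H9. Its HES2 levels were 16.4 CPM with shDDX18#1, 20.6 CPM with shDDX18#3 and 43.8 CPM with shLuc. The knockdown libraries averaged 16.4 ± 5.56 CPM (SD, n = 4) and the shLuc libraries 39.5 ± 6.12 CPM (SD, n = 2), and the groups did not overlap. The log2 fold change was -1.28 (SE 0.31, limma adjusted p = 0.0317), past the threshold in 12 of 18 alternative fits.

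BRCA1, whose complex with BARD1 directs breaks towards recombination, stood at 18.0 CPM with shDDX18#1, 31.8 CPM with shDDX18#3 and 46.8 CPM with shLuc in H9. The HES2 values were 22.2 CPM with shDDX18#1, 34.5 CPM with shDDX18#3 and 55.0 CPM with shLuc. Each hairpin gave similar levels in the 2 lines, and shDDX18#1 was the lower. The log2 fold change was -0.95 (SE 0.27, limma adjusted p = 0.0469). RNASEH2A, the catalytic subunit of the enzyme that cuts the RNA strand of RNA:DNA hybrids, read 28.6 CPM with shDDX18#1, 43.4 CPM with shDDX18#3 and 55.9 CPM with shLuc in H9. In HES2 it read 35.4 CPM with shDDX18#1, 50.1 CPM with shDDX18#3 and 83.6 CPM with shLuc. The HES2 shLuc library was well above the rest, while HES2 shDDX18#3 came close to H9 shLuc. Its log2 fold change was -0.81 (SE 0.23, limma adjusted p = 0.0458). Both genes passed in 10 of 18 alternative fits.

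RAD54L, a motor protein that helps the invading strand enter a duplex, had 22.1 CPM with shDDX18#1, 33.4 CPM with shDDX18#3 and 49.0 CPM with shLuc in H9. The HES2 levels were 25.7 CPM with shDDX18#1, 34.3 CPM with shDDX18#3 and 49.0 CPM with shLuc. The 2 shLuc libraries coincided, and the log2 fold change was -0.77 (SE 0.22, limma adjusted p = 0.0496), past the threshold in 8 of 18 alternative fits. XRCC3, which works in a complex with RAD51C, gave 33.1 CPM with shDDX18#1, 41.5 CPM with shDDX18#3 and 52.9 CPM with shLuc in H9, and 32.2 CPM with shDDX18#1, 32.0 CPM with shDDX18#3 and 58.8 CPM with shLuc in HES2. Apart from H9 shDDX18#3, the knockdown libraries lay within a narrow band, and the groups did not overlap. Its log2 fold change was -0.68 (SE 0.18, limma adjusted p = 0.0380). The library kit does not keep strand, and 76.7% of XRCC3's exonic bases are shared with KLC1 on the other strand (log2 fold change 0.09, limma adjusted p = 0.731), so the reads of the 2 genes cannot be told apart there.

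**Figure D2:**
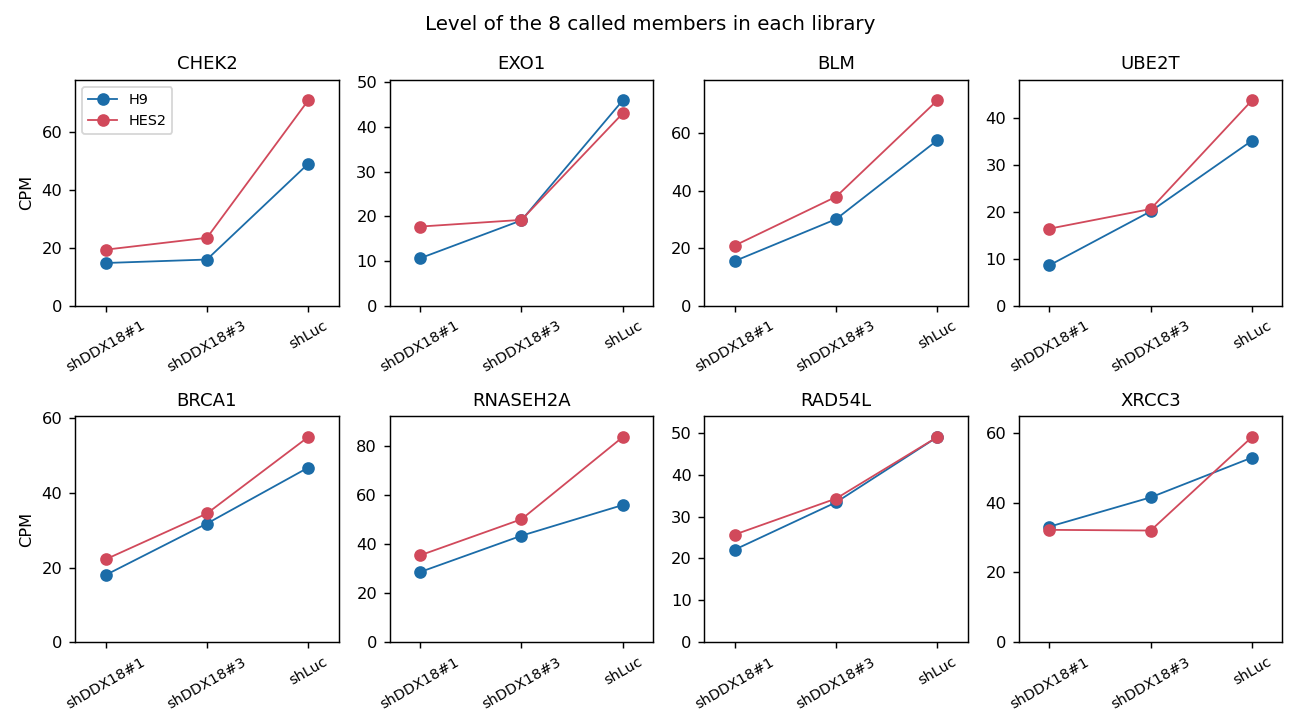
Level in CPM (y axis, from 0) of the 8 called members in each arm (x axis), blue for H9 and red for HES2, 1 library per point. Both shDDX18#1 and shDDX18#3 lie below shLuc in every panel, nearly level with each other for CHEK2 (14.7 and 15.9 CPM in H9) and in steps for BLM (15.5 and 30.1 CPM in H9).

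Promoter windows are shown for CHEK2, EXO1 and BLM, the 3 members with the lowest fold changes, and for RAD51C, the member with the highest estimate. They are RefSeq sequence on GRCh38.p14, from 250 bases before to 50 after the transcription start, written 5′ to 3′ on the gene's strand. CHEK2 lies on the minus strand at chr22:28741771-28742070, EXO1 on the plus strand at chr1:241847954-241848253, BLM on the plus strand at chr15:90717096-90717395 and RAD51C on the plus strand at chr17:58692323-58692622. Capitals mark matches to the E2F letters on either strand: the word TTGGCGC, the word TTCGCGC, the word TTCCCGC or the word TTGCCGC.

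CHEK2: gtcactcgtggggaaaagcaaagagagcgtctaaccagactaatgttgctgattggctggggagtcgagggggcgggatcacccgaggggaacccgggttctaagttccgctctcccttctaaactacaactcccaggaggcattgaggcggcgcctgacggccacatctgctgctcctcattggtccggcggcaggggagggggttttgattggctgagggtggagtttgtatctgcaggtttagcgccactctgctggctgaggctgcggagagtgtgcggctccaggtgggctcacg

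EXO1: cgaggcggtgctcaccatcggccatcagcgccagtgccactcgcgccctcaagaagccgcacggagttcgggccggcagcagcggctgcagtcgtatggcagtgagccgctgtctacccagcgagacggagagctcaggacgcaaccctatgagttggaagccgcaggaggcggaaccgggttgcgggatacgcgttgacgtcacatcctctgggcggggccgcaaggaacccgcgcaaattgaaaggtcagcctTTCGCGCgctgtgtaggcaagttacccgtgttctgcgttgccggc

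BLM: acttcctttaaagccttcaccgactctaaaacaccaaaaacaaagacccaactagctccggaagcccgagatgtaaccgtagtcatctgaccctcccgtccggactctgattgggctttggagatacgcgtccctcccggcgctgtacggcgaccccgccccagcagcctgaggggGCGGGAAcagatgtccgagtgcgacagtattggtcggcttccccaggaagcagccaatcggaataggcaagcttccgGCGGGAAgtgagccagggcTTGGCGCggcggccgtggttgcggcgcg

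RAD51C: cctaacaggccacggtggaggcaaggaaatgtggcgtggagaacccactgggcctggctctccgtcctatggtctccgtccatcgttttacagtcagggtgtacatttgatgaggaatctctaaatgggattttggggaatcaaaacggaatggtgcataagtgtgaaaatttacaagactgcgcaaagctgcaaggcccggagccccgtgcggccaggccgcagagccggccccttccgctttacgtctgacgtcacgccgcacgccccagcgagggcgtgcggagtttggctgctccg

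BLM holds 3 matches to the E2F letters, starting 74 bases before, 4 after and 23 after the transcription start, and EXO1 holds 1, starting 6 after it. RefSeq gives EXO1 a further window, at chr1:241848481-241848780, which holds none, and RAD51C a further window without a match. CHEK2 and RAD51C hold none in the windows shown, while CHEK2 and BLM each hold 3 of the letters CCAAT. A member with several windows, as 10 of them had, was counted as holding a motif if any window did. Of the 33 members with a window (FANCI, NBN, RAD54B and RMI2 had none), 19 held the E2F letters, which is 57.6%, against 24.1% of the 11570 genes of the table with a window and 13.0% of all 35116 windows. Among the 8 called members 5 held them (EXO1, BLM, BRCA1, RAD54L and XRCC3). The median fold change was -0.68 over the 19 members with a match and -0.52 over the 14 without, and the ranges, -1.40 to -0.28 and -1.65 to 0.60, overlapped. The letters CCAAT were found in 16 of the 33 (48.5%, against 42.5% of the genes), and 7 of the 8 called members held them. TTTGAA or TTCGAA, letters of the cell cycle homology region, were found in 4 of the 33 (12.1%, against 15.7%). No E2F match overlapped a CCAAT match in the members' windows.

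Among the 11 recombinase mediators and strand invasion factors, 3 fell (BRCA1, RAD54L and XRCC3) and 8 did not pass, with a median fold change of -0.68. BRCA2, which acts on resected ends before strand invasion, varied widely within the knockdown group: 11 CPM with shDDX18#1, 30.8 CPM with shDDX18#3 and 23.0 CPM with shLuc in H9, and 18.3 CPM with shDDX18#1, 27.8 CPM with shDDX18#3 and 39.1 CPM with shLuc in HES2. H9 shDDX18#3 exceeded its own control, so the groups overlapped, and the log2 fold change was -0.53 (SE 0.38, limma adjusted p = 0.363). PALB2, the bridge between BRCA1 and BRCA2, and XRCC2, which acts in a complex with RAD51D, had fold changes of -0.74 (adjusted p = 0.148) and -0.88 (adjusted p = 0.0798) in limma. RAD51AP1, a cofactor of strand pairing, was at -0.78, BARD1, the partner of BRCA1, at -0.53, RAD51D, the partner of XRCC2, at -0.28 and RAD54B, a relative of RAD54L, at -0.27. RAD54B rested on 9 to 39 reads per library.

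RAD51C, which binds XRCC3 and also takes part in the complex of XRCC2 and RAD51D, was the member with the highest estimate. It had 24.1 CPM with shDDX18#1, 14.3 CPM with shDDX18#3 and 14.7 CPM with shLuc in H9. In HES2 it had 25.7 CPM with shDDX18#1, 11.4 CPM with shDDX18#3 and 8.94 CPM with shLuc. The shDDX18#1 libraries stood above the other 4, which overlapped between arms. Over both hairpins the log2 fold change was 0.60 (SE 0.36, limma adjusted p = 0.284), and with shDDX18#1 alone 1.05 (SE 0.27, limma adjusted p = 0.0202). In limma that call was lost without the H9 shDDX18#3, HES2 shDDX18#3, HES2 shLuc or HES2 shDDX18#1 library, each giving 0 members called higher, and it was also lost in DESeq2. Its unadjusted p stayed under 0.05 in these fits other than the one without HES2 shDDX18#1.

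The Fanconi core complex is the ubiquitin ligase of the pathway, and of its 9 members, UBE2T counted among them, only UBE2T fell; the median fold change was -0.53. FANCG, a subunit that joins FANCA in the core, came nearest of the rest: 22.1 CPM with shDDX18#1, 42.8 CPM with shDDX18#3 and 66.7 CPM with shLuc in H9, and 27.0 CPM with shDDX18#1, 39.3 CPM with shDDX18#3 and 58.8 CPM with shLuc in HES2. The groups did not overlap, and the log2 fold change was -0.96 (SE 0.28, limma adjusted p = 0.0505), which edgeR and DESeq2 both called lower. FANCA had a fold change of -0.61, and FANCB, FANCC, FANCE and FANCF, further core subunits, had -0.55, -0.53, -0.50 and -0.32. FANCB rested on 8 to 33 reads per library. FANCL, the catalytic ligase subunit, was at -0.34, and FANCM, the translocase that anchors the core to DNA, at -0.36. FANCC was low in 1 library, H9 shDDX18#1, at 6.53 CPM against 18.5 CPM in H9 shDDX18#3 and 25.2 CPM in H9 shLuc, while HES2 shDDX18#1, HES2 shDDX18#3 and HES2 shLuc had 20.6, 23.9 and 21.2 CPM.

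FANCD2 and FANCI form the clamp that the core complex ubiquitinates, and BRIP1 (FANCJ) is a helicase that binds BRCA1. None of the 3 passed in limma, where FANCD2 and FANCI had an unadjusted p under 0.05 and edgeR and DESeq2 called none of them. In the authors' deposited table FANCD2 was lower at a false discovery rate of 0.0253, while FANCI (0.0589) and BRIP1 (0.251) did not reach 0.05. FANCD2 was measured at 25.7 CPM with shDDX18#1, 76.2 CPM with shDDX18#3 and 99.1 CPM with shLuc in H9. In HES2 it was at 38.3 CPM with shDDX18#1, 64.0 CPM with shDDX18#3 and 97.0 CPM with shLuc. The shLuc libraries nearly coincided, and the hairpins differed widely, so that the fold change of -1.05 carried an SE of 0.39 (limma adjusted p = 0.102). The pseudogene FANCD2P2 matches 1400 bases of FANCD2, 26.8% of its longest transcript, so its reads may be split. FANCI had a fold change of -0.62 and BRIP1 of -0.60, and BRIP1 in H9 shDDX18#3, at 50.9 CPM, stood above its own shLuc library at 39.6 CPM.

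Of the 4 parts of the BLM complex, BLM fell, and RMI1, RMI2 and TOP3A did not pass in limma, with a median of -1.12 over the 4. RMI1 and RMI2 are the scaffold subunits, and their fold changes were -1.14 (SE 0.42, limma adjusted p = 0.0980) and -1.10 (SE 0.33, limma adjusted p = 0.0577). DESeq2 called RMI2 lower, and edgeR called neither. In the authors' deposited table both were lower, at false discovery rates of 0.0218 for RMI1 and 0.00919 for RMI2. RMI1 stood at 6.53 CPM with shDDX18#1, 20.7 CPM with shDDX18#3 and 34.3 CPM with shLuc in H9, and at 13.8 CPM with shDDX18#1, 21.7 CPM with shDDX18#3 and 31.3 CPM with shLuc in HES2. The order of arms was the same in both lines, with a wide gap between hairpins in H9. TOP3A, the topoisomerase that passes the strands, had a fold change of -0.31 and 33.5 to 49.9 CPM in knockdown libraries against 53.4 to 57.6 CPM with shLuc.

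In end resection and break sensing, EXO1 fell and 3 members did not pass, with a median of -0.49 over the 4. RBBP8 (CtIP), which starts resection, had a fold change of -0.52 (SE 0.17, limma adjusted p = 0.0793). RAD50, the long coiled-coil protein of the complex that tethers broken ends, rested on 6 to 29 reads per library, with a fold change of -0.46. NBN, the subunit that recruits ATM to that complex, had -0.09 and 35 to 50.1 CPM after knockdown against 42.4 to 49.0 CPM with shLuc, overlapping entirely.

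Among the 4 checkpoint kinases CHEK2 fell, and the other 3 did not pass. CHEK1, the effector of ATR at stalled forks, had 24.5 CPM with shDDX18#1, 50.2 CPM with shDDX18#3 and 74.2 CPM with shLuc in H9. In HES2 it had 33.8 CPM with shDDX18#1, 52.6 CPM with shDDX18#3 and 71.3 CPM with shLuc. The groups did not overlap, and the spread between hairpins was wide (log2 fold change -0.90, SE 0.30, limma adjusted p = 0.0753). Of the upstream kinases, ATM, the sensor of broken ends, had a fold change of 0.07 (SE 0.23, limma adjusted p = 0.847). ATR, the sensor of single-stranded DNA, had -0.18 (SE 0.23, limma adjusted p = 0.632). In ATM the shDDX18#3 libraries, at 96.6 CPM in H9 and 81.0 CPM in HES2, stood above the 4 others, and in ATR both arms overlapped. Of the R-loop genes, RNASEH2A fell, and AQR, an RNA helicase linked to R-loop removal, had a fold change of -0.36 (SE 0.15, limma adjusted p = 0.136).

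The hairpins differed in how many members passed. With shDDX18#1 against shLuc, 22 members fell, where 13.4% of all genes were called lower, and RAD51C rose, where 14.4% were called higher. With shDDX18#3 against shLuc, BLM, EXO1 and CHEK2 fell, where 3.69% were called lower. In that comparison 0 members rose in limma, edgeR or DESeq2, where limma called 6.96% higher. At an unadjusted p under 0.05 limma had 15 members with shDDX18#3, each lower, among 4690 of 17768 genes in either direction. The 2 comparisons share the shLuc libraries. The 22 members were the 8 above with BRCA2, PALB2, XRCC2, RAD51AP1, FANCA, FANCG, FANCD2, FANCI, BRIP1, RMI1, RMI2, RBBP8, CHEK1 and AQR, which takes in all 3 of FANCD2, FANCI and BRIP1 and 3 of the 4 BLM complex genes. FANCD2 was at -1.61 (SE 0.21, limma adjusted p = 0.00115) with shDDX18#1 and at -0.48 (limma adjusted p = 0.183) with shDDX18#3. CHEK2 was at -1.75 (SE 0.19, limma adjusted p = 0.000596) with shDDX18#1 and at -1.56 (SE 0.19, limma adjusted p = 0.00269) with shDDX18#3. The median over members was -0.92 with shDDX18#1 and -0.35 with shDDX18#3. Without the H9 shDDX18#1 library 14 members were lower with shDDX18#1, and without either shDDX18#3 library 0 were lower with shDDX18#3 in limma, where 8 (H9 left out) and 3 (HES2 left out) had an unadjusted p under 0.05.

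Tested directly, shDDX18#1 against shDDX18#3, 0 members were called in limma, where 0% of all genes were, and 0 in edgeR. At an unadjusted p under 0.05 limma had 20 members, 19 lower with shDDX18#1 and RAD51C higher, among 2536 genes in all. The median member difference was -0.53, against -0.02 over all genes. FANCD2 had a difference of -1.13 (SE 0.21, limma adjusted p = 0.117), BLM of -0.87 (limma adjusted p = 0.127) and CHEK1 of -0.82 (limma adjusted p = 0.141). CHEK2, at -0.18, and XRCC3, at -0.16, lay nearer to 0. Members were lower with shDDX18#1 in 32 of 37 cases in H9, as 52.7% of all genes were, and in 31 of 37 in HES2, as 50.6% were. In both lines at once it was 28 of 37, as in 33.6% of all genes, while RAD51C and FANCE were higher with shDDX18#1 in both. DDX18 was left at 12.6% of its own shLuc level with shDDX18#1 and 31% with shDDX18#3 in H9, and at 24.5% with shDDX18#1 and 37.6% with shDDX18#3 in HES2; its part in the difference between hairpins was not tested.

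**Figure D3:**
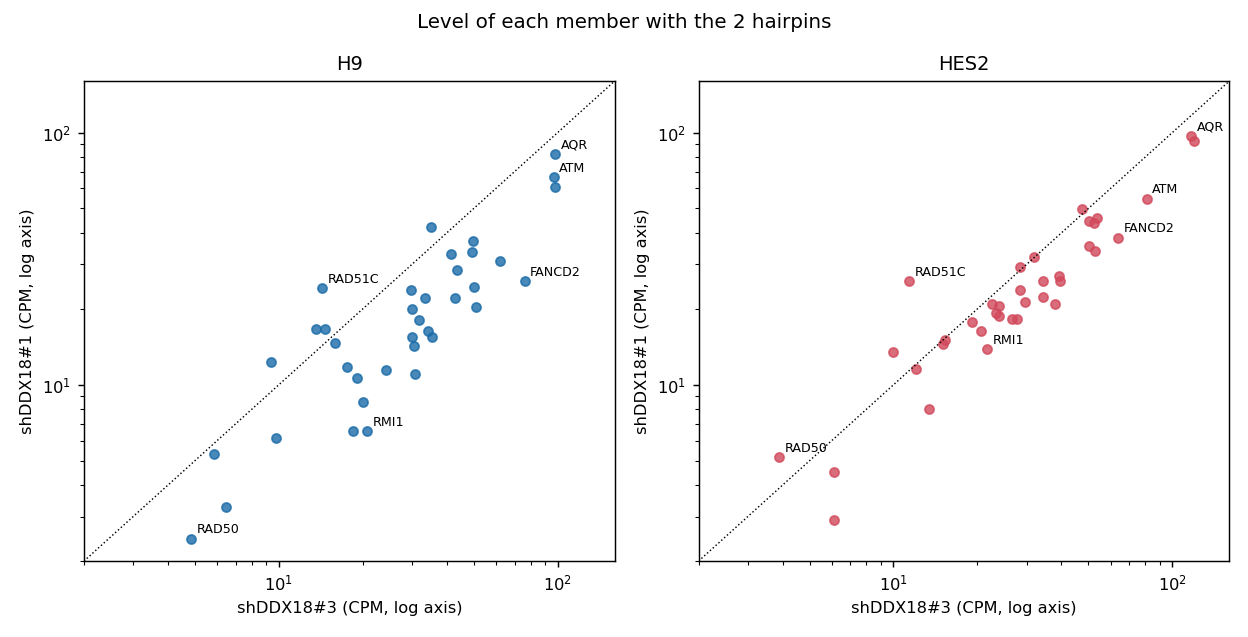
Level of each of the 37 members with shDDX18#1 (y axis) against shDDX18#3 (x axis) in CPM on log axes, H9 on the left and HES2 on the right, with a dotted line of equal level. Below the line lie 32 members in H9 and 31 in HES2, and RAD51C lies above it in both (24.1 and 25.7 CPM with shDDX18#1, 14.3 and 11.4 CPM with shDDX18#3).

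Between the lines, the knockdown effect of 0 members differed in limma, where 0% of all genes did; 0 members reached an unadjusted p under 0.05 and edgeR called 0. The largest estimates were RAD54B, whose effect in HES2 minus that in H9 was -1.23 (SE 0.70), and FANCC, at 1.17 (SE 0.76), each with a limma adjusted p of 1. In level, HES2 against H9 with the arm as a block, RMI2 was lower in HES2, where 5.42% of all genes were called in either direction and 3.98% lower, and 0 members were higher in limma or edgeR, where limma called 1.44% of all genes higher. Unadjusted, 5 members had a higher level in HES2 at p under 0.05 in limma. In either direction it was 6 of the 37 members, where 3741 of 17768 genes did. RMI2 had 8.04 CPM with shDDX18#1, 13.4 CPM with shDDX18#3 and 27.1 CPM with shLuc in HES2, and 14.3 CPM with shDDX18#1, 30.5 CPM with shDDX18#3 and 40.1 CPM with shLuc in H9. HES2 was lower in each arm (log2 difference -0.81, SE 0.19, limma adjusted p = 0.0491), a call that ended with a pseudocount of 4, without the variance trend and with no arm block.

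Related genes were counted in lists written for this purpose, none of which holds a member. Over all genes tested, 6.26% were called lower and 9.6% higher after knockdown. Among 30 other recombination genes 6 fell and 0 rose, with a median of -0.41, and DNA2, a resection nuclease, and RPA2, which coats single strands, had fold changes of -1.21 (limma adjusted p = 0.0151) and -0.92 (0.0202). Among 22 other Fanconi and crosslink genes 3 fell and 1 rose, with a median of -0.28: MAD2L2, a subunit of the translesion polymerase zeta, fell (-1.28, 0.0115), while REV3L, its catalytic subunit, rose (1.16, 0.00700). In checkpoint signalling 3 of 18 fell, among them CDC25A, the phosphatase that CHEK1 targets (-1.5, 0.0184), and H2AFX, the histone marked at breaks (-1.02, 0.0409). Of 22 other R-loop factors 4 fell, with RNASEH2B, a partner of RNASEH2A, at -1.15 (0.0133) and the splicing factor SRSF1 at -0.86 (0.0215). The medians of these last 2 lists were -0.45 and -0.30, and 0 of their genes rose.

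Other repair pathways were counted beside them. Some genes stand in several lists, and UNG, named here, is also counted among the S phase markers. Of 7 mismatch repair genes 2 fell and 0 rose, with each of the 7 estimates below 0 and a median of -0.47. Base excision repair had 4 of 21 lower, including the uracil glycosylase UNG (-1.5, limma adjusted p = 0.00894) and the strand break sensor PARP1 (-1.19, 0.0206). End joining had 2 of 12 lower, the Ku subunits XRCC5 (-0.84, 0.0422) and XRCC6 (-0.62, 0.0451). In these base excision and end joining lists 0 genes rose, and the medians were -0.15 for base excision repair and -0.29 for end joining. Nucleotide excision repair had a median of 0.01, with the helicase ERCC2 lower (-0.68, 0.0263) and ERCC6, which couples repair to transcription, higher (0.70, 0.0417) among 18. The nucleotide excision repair calls were no more frequent than the 6.26% lower and 9.6% higher over all genes tested. In the mismatch repair, base excision repair and end joining lists the share called lower was above that 6.26%.

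Cell cycle and cell type markers moved in the same libraries. Of 40 S phase markers 24 fell, with a median of -1.16, led by E2F1, a driver of S phase genes (-1.79, limma adjusted p = 0.00354), and MCM6, of the replicative helicase (-1.41, 0.00486). Their summed level was 1598 CPM with shDDX18#1, 2919 CPM with shDDX18#3 and 5181 CPM with shLuc in H9, and 2436 CPM with shDDX18#1, 3143 CPM with shDDX18#3 and 5186 CPM with shLuc in HES2, the same order of arms as the 37 members. Of 38 G2 and M phase markers 14 fell, with a median of -0.89, and 20 of 30 p53 targets rose, with a median of 1.24, among them FAS, a death receptor (3.06, 0.00104), and BTG2, an antiproliferative factor (2.61, 0.000998). Of 15 pluripotent markers 10 fell, 14 had estimates below 0 and the median was -1.38. The exception was PODXL, a surface sialomucin, at 0.65 (limma adjusted p = 0.0988), singled out after its value was seen. Of 26 fibroblast and feeder markers 17 rose and 0 fell, and their summed level was 53782 CPM with shDDX18#1, 22197 CPM with shDDX18#3 and 5819 CPM with shLuc in H9, and 10425 CPM with shDDX18#1, 8549 CPM with shDDX18#3 and 2477 CPM with shLuc in HES2. DCN and FAP were at 0 in at least 1 library, and FAP had 3 reads or fewer in both shLuc libraries. Whether reads from the mouse feeders are counted among the fibroblast and feeder markers was not tested. Of 12 endoderm markers 8 rose, summing to 635 to 1564 CPM in knockdown libraries and 259 to 361 CPM with shLuc, and TTR was at 0 in at least 1 library. Of 6 neural markers 1, PAX6, rose. The part of the cell cycle, p53 and cell type markers in the fall of the recombination and Fanconi genes was not tested.

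**Figure D4:**
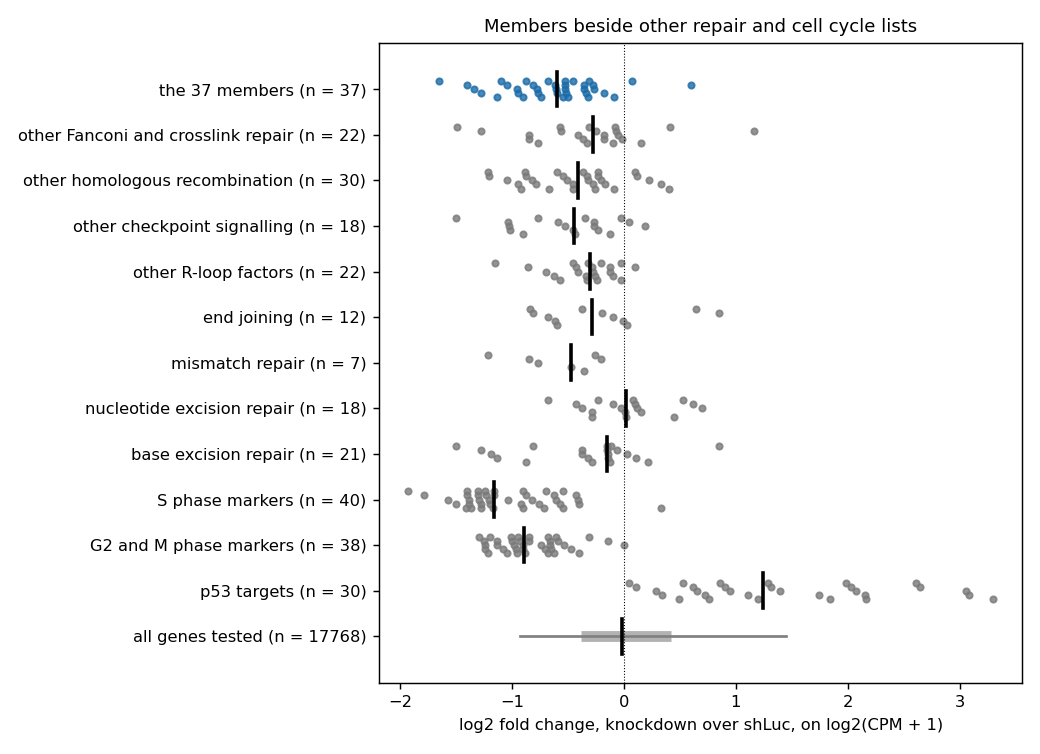
Log2 fold change of knockdown over shLuc (x axis) for the 37 members in blue and for 11 other gene lists in grey, 1 point per gene, with the median as a black bar. The bottom row gives all 17768 genes tested, with a thick band from the 25th to the 75th percentile and a thin line from the 5th to the 95th. The members centre on -0.60, the S phase markers on -1.16, nucleotide excision repair on 0.01 and p53 targets on 1.24.

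Per 1000 bases of exon, UBE2T had the highest level of the members in shLuc cells, at 21.3 CPM in H9 and 26.5 CPM in HES2 (mean 23.9). RNASEH2A followed at 15.3 and 22.9 CPM per 1000 bases, then FANCI at 18.8 and 17.0 and FANCG at 18.5 and 16.3, and these ranges over the lines overlapped. At the low end stood FANCM with a mean of 1.5, RAD54B with 1.21 and RAD50 with 0.601 CPM per 1000 bases. Exon lengths came from GENCODE on GRCh38, not from the build named for the reads. In that annotation 20 of the 37 members share exonic bases with another gene, 6 of them over 20%: RAD50 79.7%, XRCC3 76.7%, RAD54B 59.1%, RNASEH2A 30.8%, RAD54L 25.1% and FANCA 23.6%. Reads in those bases cannot be assigned without strand or splice information. The levels per 1000 bases of these 6, and so the low rank of RAD50 and RAD54B, are therefore uncertain. EXO1, BLM and UBE2T share no exonic base with another gene.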

How the data were processed

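RNA was sequenced from 6 libraries, 1 per cell line and arm. Per the submitters' processing notes, the tools were edgeR 3.26.8, HTSeq 0.11.2, SAMtools 1.9 and Bowtie2 2.3.4.3 on hg19, and what each did is not given. The authors deposited 1 table: a normalized signal per gene and library, and, for knockdown against shLuc, a log2 fold change with its p-value, false discovery rate, likelihood ratio score and log2 mean abundance. Score and abundance were not used here. Divided by the worth of 1 read, 100% of the signal values came out whole (tolerance 0.001), so the signal is CPM of a scaled library.

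Genes reaching 1 CPM in 2 or more libraries (17768, with 161 left out) were fitted on log2(CPM + 1) with limma 3.58.1 in R 4.3.3, with a variance trend, all 6 libraries and the line as a block (3 residual degrees of freedom for knockdown against shLuc, 2 for the other fits). P-values were adjusted by the Benjamini-Hochberg method over all genes tested. As alternatives, edgeR 4.0.16 and DESeq2 1.42.0 were run on the recovered reads (edgeR called 1189 genes lower and 1717 higher after knockdown, limma 1113 and 1706), and pseudocounts, filters, scalings and left-out libraries were varied. The line label pairs the libraries: the HES2 minus H9 differences correlated across 17768 genes at 0.36 for shDDX18#1 with shLuc, 0.45 for shDDX18#3 with shLuc and 0.65 between the hairpins. The script was tested on simulated data.

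All 37 members are accounted for, called members with values in every library, and each related list by the 2 genes with the smallest p. Other genes were named for overlap or sequence similarity with a member. Some genes of the related lists are not reported here. Members and lists were chosen with earlier results of these data known. Promoter windows are RefSeq, and exons and overlaps GENCODE v29.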

Additional observations from a re-analysis of the deposited data

Results flagged for a closer look

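Within the 4 knockdown libraries, 3 members had 1 library far from the other 3, a rule that chance meets in about 1 of 20 groups, and 37 groups were examined. XRCC3 was highest in H9 shDDX18#3, at 41.5 CPM, BRIP1 was highest in the same library, at 50.9 CPM, and TOP3A was lowest in H9 shDDX18#1, at 33.5 CPM. No member's knockdown effect differed between the lines, or between the hairpins, at an adjusted p under 0.05 in limma, and edgeR called 0 in both. Between lines 0 members had an unadjusted p under 0.05 in limma, where 788 of 17768 genes did. Between hairpins it was 20 members, where 2536 genes did.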

How the results depend on the processing

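The count of 8 members lower after knockdown was 5 with a pseudocount of 4, 2 without the variance trend and 2 with no replicate block, so the block changed that count, and 0 to 19 when each library was left out in turn. With the other pseudocount, filters, scalings and tools it was 7 to 9, and 0 members were higher in every alternative. The 22 members lower with shDDX18#1 became 14 without the trend and 14 with no replicate block, and 14 to 21 when a library was left out. The 1 member higher with shDDX18#1 became 0 without the trend, 0 with no replicate block and 0 in DESeq2, and 0 to 1 when a library was left out. The 3 members lower with shDDX18#3 became 1 without the trend and 0 with no replicate block (10 at an unadjusted p under 0.05), and 0 to 4 when a library was left out. Leaving out a library in the comparisons of a single hairpin was chosen after seeing the data. The 1 member lower in HES2 than in H9 became 0 with a pseudocount of 4, 0 without the trend and 0 with no arm block. Signs turned for 3 members when a library was left out: FANCC ranged from -1.11 to 0.06 (0.06 without H9 shLuc). ATM ranged from -0.15 to 0.30 (-0.15 without H9 shLuc, -0.07 without H9 shDDX18#3, -0.01 without HES2 shDDX18#3). RAD54B ranged from -0.88 to 0.35 (0.35 without HES2 shLuc, 0.01 without HES2 shDDX18#1). The cause was not tested. With 1 library left in an arm, it is assumed to vary like the others. The member counts of these alternative fits are given here without the share of all genes called in the same fit. A change in calling over all genes is therefore not separated from them. RAD50, FANCB and RAD54B had 39 reads or fewer in every library, which limits their precision.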
